A study of Mus musculus with 6 samples.

Results

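The genes of the proteasome were followed in macrophages with and without the soluble epoxide hydrolase (sEH, encoded by Ephx2). They were taken as the protein-coding rows of the count table whose symbol begins with Psma to Psmg and a digit, which gave 49 of 19309 genes. Of these, 5 encode the subunits that interferon-γ induces, namely Psmb8, Psmb9, Psmb10, Psme1 and Psme2, and they were set against the other 44. Psmc3ip matched by its symbol only. It encodes a protein that binds PSMC3 and acts in meiotic recombination, and no proteasome subunit. All 49 genes passed the filter on low counts and were tested.

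RNA was sequenced in bulk from macrophages grown out of bone marrow, with 1 library from each of 3 sEH-/- mice and each of 3 wild-type mice. Monocytes were differentiated for 7 days with M-CSF and GM-CSF, polarized to M1 with LPS and interferon-γ, and repolarized to the pro-resolving M2c state with TGF-β1 in every library. The sample descriptions give 24 h of M1 stimulation before a further 48 h with TGF-β1, whereas the methods state an M1 step of 12 h. The mice were 8 to 10 weeks old, and the methods describe age- and strain-matched littermates. Ephx2 was deleted constitutively in the whole animal (the methods list the line Ephx2tm1.1Arte x Gt(ROSA)26Sortm16(Cre)Arte), and not in macrophages alone. After comparing the sexes, the study states that it continued with bone marrow from female mice, and its methods describe most experiments as done on female cells. The sex is not named for these libraries themselves. No M0 or M1 library was part of the comparison. The levels thus describe cells that had all met interferon-γ before TGF-β1, and no induction by either agent can be read from them.

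Library totals lay between 4400197 and 6096440 counts. Ephx2 was at 0.440 ± 0.228 counts-per-million (CPM) in sEH-/- libraries against 7.96 ± 2.25 CPM in wild-type ones (mean ± SD, n = 3 each), which is a log2 fold change of -4.05 (edgeR quasi-likelihood test, Benjamini-Hochberg adjusted p = 0.00418). All 10 macrophage markers were detected, among them Adgre1 and Csf1r, and their summed level was 2276 to 2817 CPM in sEH-/- libraries against 2022 to 2540 CPM in wild-type ones. Neutrophil markers, nearly all from S100a8, summed to 27.7 to 31.3 and 17.6 to 21.0 CPM, and dendritic cell markers, mostly Clec9a, to 27.7 to 58.2 and 42.2 to 59.5 CPM, with Cd209a at 0 in every library. Stromal markers, led by Col1a2, summed to 16.2 to 34.9 and 12.3 to 65.6 CPM. The only lymphocyte marker in the table, Klrb1c, did not exceed 0.807 CPM and the only erythroid one, Epor, 2.32 CPM.

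The proteasome is the barrel-shaped protease that degrades proteins tagged with ubiquitin. Its 20S core is built from outer rings of alpha subunits, which gate the entrance, and inner rings of beta subunits, of which Psmb5, Psmb6 and Psmb7 carry the chymotrypsin-like, caspase-like and trypsin-like sites. The 19S cap recognizes, unfolds and feeds in the substrates. Interferon-γ makes cells replace Psmb5 by Psmb8 (LMP7), Psmb6 by Psmb9 (LMP2) and Psmb7 by Psmb10 (MECL-1), and raises the cap of Psme1 and Psme2 (PA28α and PA28β). The resulting immunoproteasome supplies peptides for MHC class I and is abundant in macrophages.

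In the files' mm10 coordinates, Psmb8 (ENSMUSG00000024338, chr17:34197721-34201454, plus strand) and Psmb9 (ENSMUSG00000096727, chr17:34181987-34187764, minus strand) are neighbours in the MHC. Psmb10 (ENSMUSG00000031897) is at chr8:105935735-105938444 on the minus strand. Psme1 (ENSMUSG00000022216, chr14:55578123-55581529, plus strand) and Psme2 (ENSMUSG00000079197, chr14:55587441-55591113, minus strand) lie on the chromosome of Ephx2, both 10.5 Mb from it. The other members there are Psmb5 at 11.5 Mb, Psmc6 at 20.8 Mb and Psmd6 at 52.0 Mb from Ephx2. The part of sequence linked to the deleted gene in their values was not tested.

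The upstream sequences of the inducible genes Psmb10 and Psme1 and of the constitutive subunits Psmb5 and Psmb6 are shown because the comparison turns on whether these sets moved apart. They were read from RefSeq (build GRCm38.p6), which held an entry for 41 of the 49 genes, and the 250 bases before the start site were searched on both strands for GAAANNGAA (an interferon-response element) and TGACNNNGC (an antioxidant-response element, as bound by NFE2 family factors). Only the longest run of bases outside annotated exons is printed, so the stretches cover unlike parts of the window. For the inducible genes they cover bases 250 to 53 (Psmb10) and 245 to 135 (Psme1) before the start. For Psmb5 the stretch runs from 250 to 28 and for Psmb6 from 250 to 1. Capitals mark a match.
Psmb10 (chr8:105938445-105938642, minus strand): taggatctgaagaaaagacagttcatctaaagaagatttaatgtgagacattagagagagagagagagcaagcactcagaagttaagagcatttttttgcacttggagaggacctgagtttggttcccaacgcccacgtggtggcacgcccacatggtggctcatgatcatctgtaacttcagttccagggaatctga
Psme1 (chr14:55578249-55578359, plus strand): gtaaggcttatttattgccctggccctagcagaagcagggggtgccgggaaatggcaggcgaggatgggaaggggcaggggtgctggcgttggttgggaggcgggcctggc
Psmb5 (chr14:54618023-54618245, minus strand): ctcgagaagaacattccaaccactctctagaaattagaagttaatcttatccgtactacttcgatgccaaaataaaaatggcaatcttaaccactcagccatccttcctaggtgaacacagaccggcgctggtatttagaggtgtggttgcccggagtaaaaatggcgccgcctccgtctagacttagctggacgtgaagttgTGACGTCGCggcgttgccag
Psmb6 (chr11:70525107-70525356, plus strand): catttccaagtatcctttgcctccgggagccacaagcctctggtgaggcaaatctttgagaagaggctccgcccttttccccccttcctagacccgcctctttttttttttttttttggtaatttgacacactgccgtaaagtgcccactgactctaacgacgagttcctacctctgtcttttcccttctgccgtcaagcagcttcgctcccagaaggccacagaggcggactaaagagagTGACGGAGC

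None of the 5 inducible genes held either of these motifs in the 250 bases, which says only that these letters are not in this window. The antioxidant-response element was found upstream of Psmb5, at 47 to 39 bases, and of Psmb6, in the 9 bases next to the start, as well as in Psmc6, Psmd9 and Psmd12. It was thus present in 5 of the 41 genes, against 10.2% of all 32851 promoter entries. The interferon-response element was present in Psmb3, Psmd4 and Psmd9 (3 of 41, against 7.13% of all entries). A gene was counted when any of its entries held the motif, whereas the shares of all entries count each entry. The compared shares are thus not in like units. Psmb9 is transcribed away from the peptide transporter gene Tap1, and their start sites are 226 bases apart. All 250 bases before the RefSeq start of Psmb9, and of Psmb8, lie in an exon of a longer annotated transcript. The stretch of Psme1 is an intron of such a transcript. These matches describe letters in a short window and not binding.

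The proteasome genes differed little between the genotypes. A gene was called when its adjusted p was below 0.05 and it differed by more than 1.50-fold. None of the 49 was called, against 2.61% of the 13785 genes tested (1.51% higher and 1.1% lower in sEH-/-), and none passed the adjusted p alone, against 4.01%. In edgeR 4 of the 49 had an unadjusted p below 0.05, against 23.4% of all genes. DESeq2 and limma-voom also called 0, against 3.43% and 2.23% of all genes, with 1 and 5 of the 49 at an unadjusted p below 0.05. The lowest adjusted p was that of Psmb10 in all of these tools, at 0.109 in edgeR, 0.210 in DESeq2 and 0.112 in limma-voom. In bulk RNA, fewer cells with a transcript and less of it per cell cannot be told apart.

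The intervals were narrow for most of these genes. The standard error of the log2 fold change was at most 0.1 in 38 of the 49, and the 95% interval lay within a 1.50-fold difference in either direction for 45 of them, including all 5 inducible subunits. The exceptions were Psma8, Psmg2, Psme2b and Psmc3ip. A total of 34 genes had an absolute log2 fold change below 0.1.

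**Figure D1:**
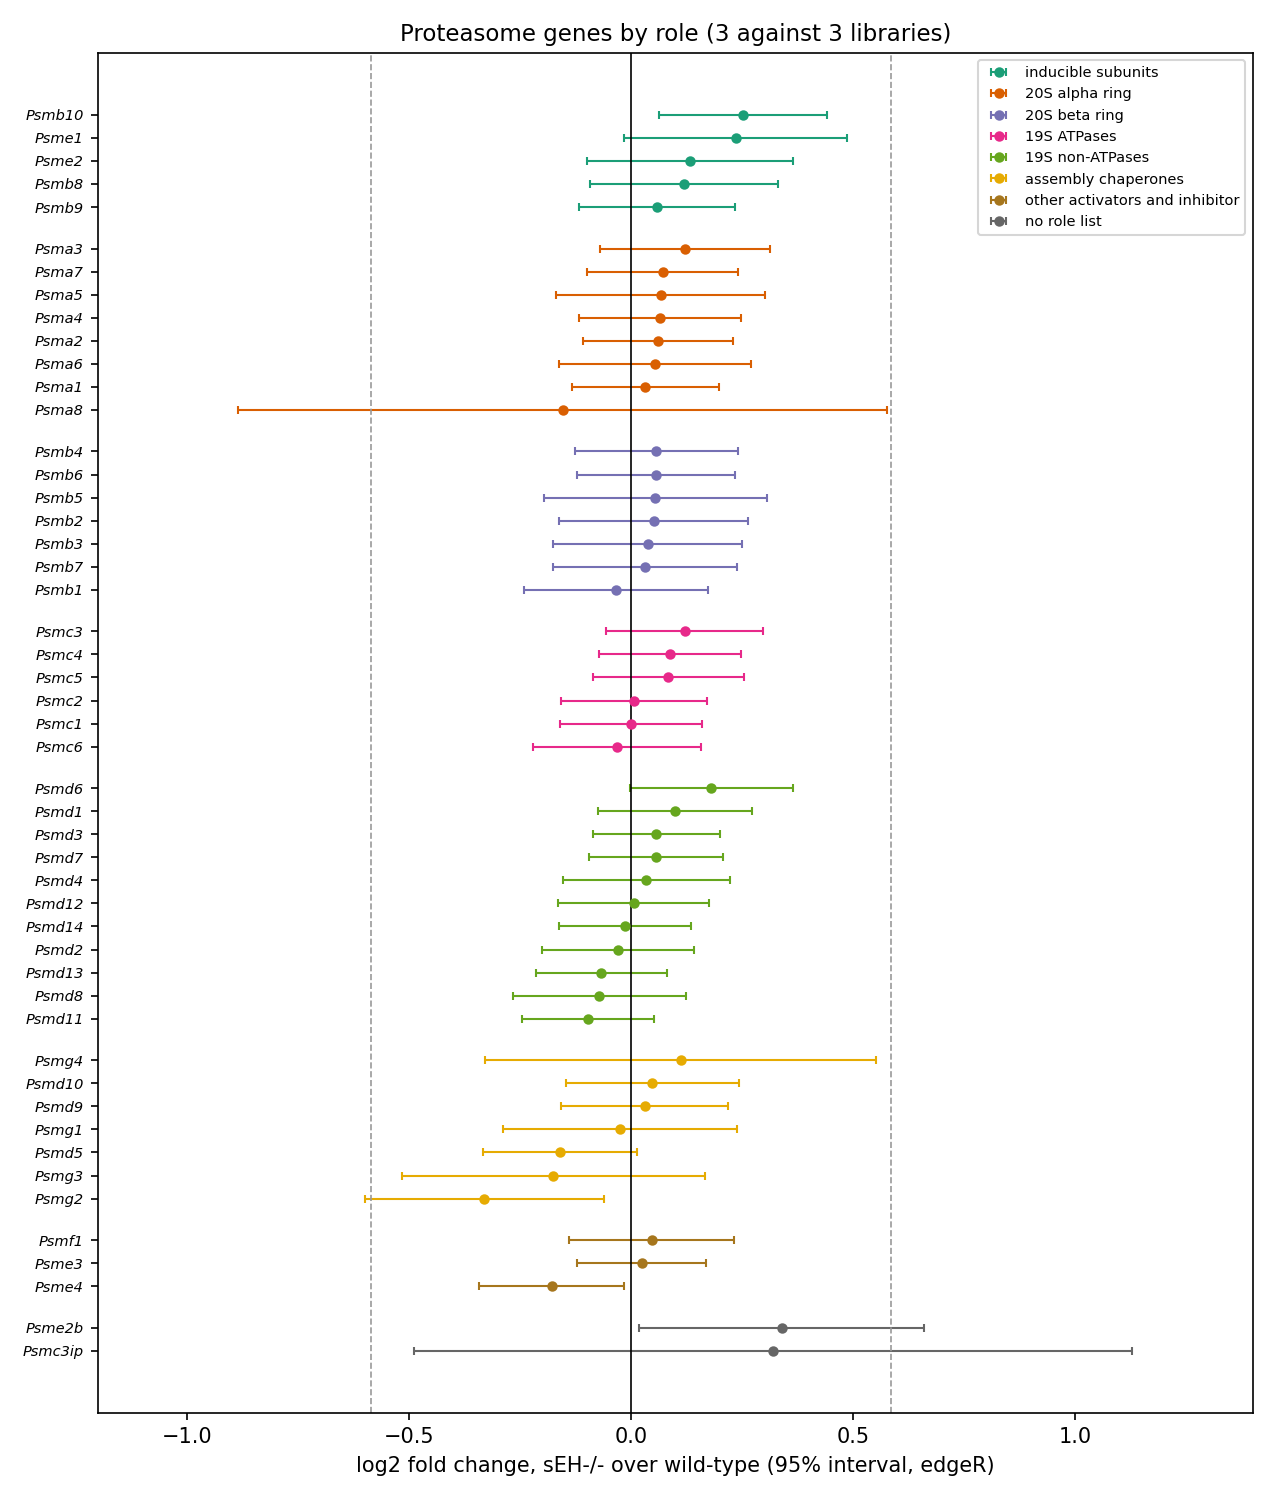
Log2 fold change of sEH-/- over wild-type libraries (x axis) for each of the 49 genes (y axis), grouped and coloured by role, with 95% intervals from the edgeR fit; dashed lines mark a 1.50-fold difference in either direction. The intervals of 45 genes lie between the dashed lines, and those of Psmb10, Psme2b, Psmg2 and Psme4 do not include 0.

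The inducible subunits were slightly higher in the mean of the sEH-/- libraries in all 5 cases, by log2 fold changes of 0.058 to 0.25, and none of these differences passed the test over all genes. Their median was 0.13, beside 0.04 for the other 44 genes and 0.00 for all genes tested. All 10 macrophage markers also had values above 0, with a median of 0.16, so such a shift was not particular to the inducible genes. Over the 49 genes, 35 (71.4%) had a value above 0. This was so for 49.8% of all genes and for 53.8% of 2941 genes that carried 0.106 to 0.234 counts per exonic base, the range of the middle of the list.

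Psmb10, which carries the inducible trypsin-like site, was at 95.8, 110.4 and 100.4 CPM in sEH-/- libraries against 90.6, 78.2 and 88.9 CPM in wild-type ones. It was the only inducible subunit whose genotypes did not overlap. The log2 fold change was 0.25 (SE 0.085, 95% interval 0.063 to 0.44), a 1.19-fold difference with an adjusted p of 0.109 (edgeR), which remained between 0.0683 and 0.410 over the alternatives.

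Psme1, the PA28α activator subunit, was at 102.5, 126.1 and 129.6 CPM in sEH-/- libraries against 113.7, 87.6 and 103.1 CPM in wild-type ones. The first sEH-/- library lay below the first and the third wild-type library, so that the groups overlapped. The log2 fold change was 0.24 (95% interval -0.015 to 0.49, adjusted p = 0.243, edgeR). Its partner Psme2 (PA28β) was at 78.0, 93.2 and 95.1 against 91.5, 73.7 and 78.0 CPM, a log2 fold change of 0.13 (95% interval -0.099 to 0.36). Reads of Psme2 are partly shared with its copy Psme2b, since 59.3% of the 50-base windows of the Psme2 transcript also occur in another gene and reads mapping to several places had been removed.

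Psmb8, the inducible chymotrypsin-like subunit, was at 117.4, 139.8 and 139.1 CPM in sEH-/- libraries against 135.4, 111.3 and 118.3 CPM in wild-type ones. The log2 fold change was 0.12 (95% interval -0.092 to 0.33). Psmb9 (LMP2) was the most even of the inducible genes, with 111.0, 121.1 and 127.1 against 121.6, 106.3 and 117.1 CPM, for a log2 fold change of 0.058 (95% interval -0.12 to 0.24). In both genes the first sEH-/- library lay below the first wild-type library.

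**Figure D2:**
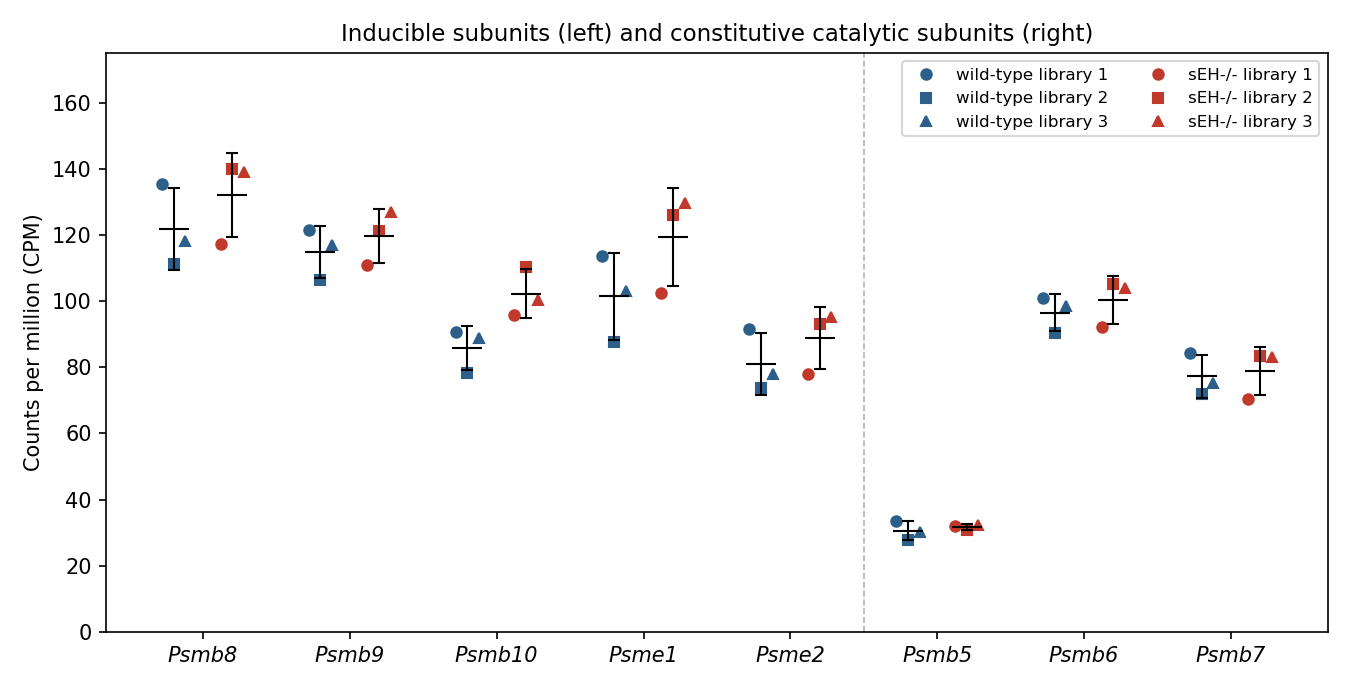
CPM (y axis) of the 5 inducible subunits and the 3 constitutive catalytic subunits (x axis) in each library; blue symbols are wild-type, red symbols sEH-/- and the shape gives the library number, with the mean and SD in black. Only for Psmb10 do the 3 sEH-/- libraries all lie above the wild-type ones, and sEH-/- library 1 and wild-type library 2 are the lowest of their genotype for every inducible gene.

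Of the constitutive subunits at the same catalytic sites, Psmb5 and Psmb7 had lower log2 fold changes than their inducible counterparts. Psmb6 was close to Psmb9 (0.058). Psmb5 was at 32.0, 30.7 and 32.2 CPM in sEH-/- libraries against 33.6, 27.9 and 30.1 CPM in wild-type ones, a log2 fold change of 0.055 (95% interval -0.20 to 0.31). Psmb6 and Psmb7 had log2 fold changes of 0.056 (95% interval -0.12 to 0.23) and 0.031 (95% interval -0.18 to 0.24). Here too the genotypes overlapped in all 3 genes. For Psmb5, 57.1% of the 50-base windows occur in another gene, so reads from them had been removed.

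The ratio of the inducible to the constitutive subunit within each library asks whether the balance of their transcripts differed, and does not depend on how libraries are scaled. The composition of assembled cores was not measured. For Psmb10 over Psmb7 the log2 ratio of counts was 0.44, 0.40 and 0.27 in sEH-/- libraries against 0.10, 0.12 and 0.24 in wild-type ones. The groups did not overlap, with means of 0.37 ± 0.088 and 0.15 ± 0.075 (SD, n = 3), and differed by 0.22 (two-sided exact permutation p = 0.1, adjusted over the 3 ratios p = 0.3). With 3 against 3 libraries 0.1 is the smallest p this test can give, so no ratio could pass 0.05.

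For Psmb8 over Psmb5 the log2 ratio was 1.87, 2.19 and 2.11 in sEH-/- libraries against 2.01, 1.99 and 1.97 in wild-type ones. The difference of 0.065 was smaller than the SD among sEH-/- libraries of 0.16 (exact permutation p = 0.5, adjusted p = 0.75). The first sEH-/- library was the lowest of all 6 and the other sEH-/- libraries the highest. For Psmb9 over Psmb6 the log2 ratio lay between 0.20 and 0.29 in sEH-/- libraries against between 0.24 and 0.27 in wild-type ones, with a difference of 0.0032 (exact permutation p = 0.9, adjusted p = 0.9).

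**Figure D3:**
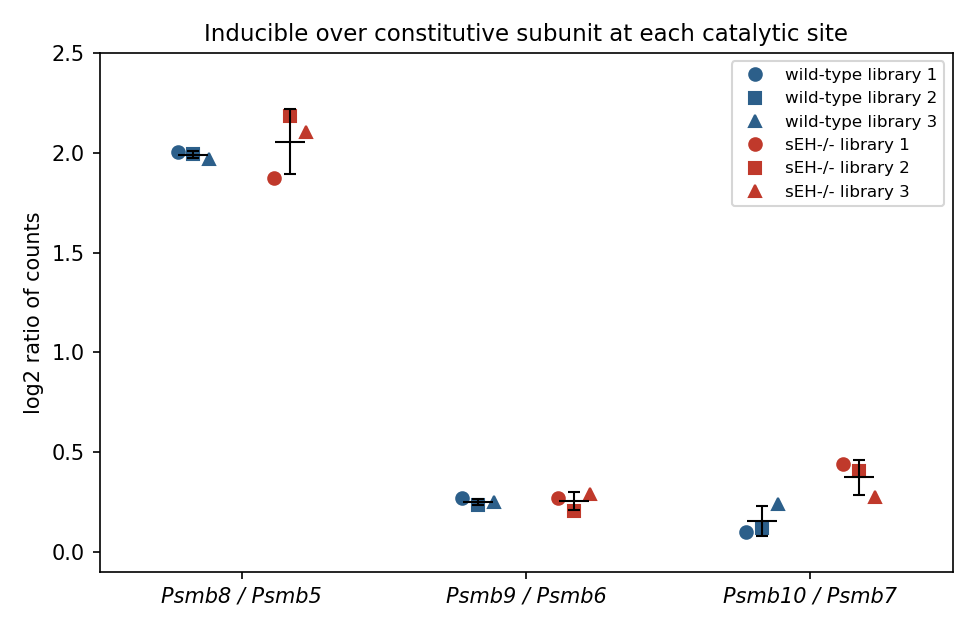
Log2 ratio of counts of each inducible subunit over the constitutive subunit it replaces (y axis) at the 3 catalytic sites (x axis), per library, with the mean and SD of each genotype in black. The sEH-/- libraries lie above all wild-type libraries for Psmb10 over Psmb7. For Psmb9 over Psmb6 they lie on both sides of the wild-type libraries.

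Expressed per kilobase of the principal transcript, Psmb8 made up 69.7% ± 2.41 of the Psmb8 and Psmb5 level in sEH-/- libraries against 68.7% ± 0.266 in wild-type ones. Psmb9 made up 41.3% ± 0.765 and 41.3% ± 0.273 of the Psmb9 and Psmb6 level, and Psmb10 53.4% ± 1.53 and 49.6% ± 1.31 of the Psmb10 and Psmb7 level (mean ± SD, n = 3 each). Transcripts of inducible and constitutive subunits were thus present side by side at all 3 sites in both genotypes. The shares rest on the length used. Per kilobase of all annotated exons, the wild-type means were 51.4%, 37.9% and 69.0% for the same sites, and per kilobase of sequence found in no other gene 47.9%, 40.0% and 49.5%.

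All inducible genes were lowest in the same libraries. Their summed level was 504.7, 590.6 and 591.3 CPM in sEH-/- libraries against 552.7, 457.1 and 505.3 CPM in wild-type ones. The first sEH-/- and the second wild-type library, which had the highest totals of their genotypes (5818444 and 6096440 counts), were the lowest ones. This held for each of the 5 inducible genes and for 27 of the other 44, in comparison with 17.2% of all genes tested and 17.6% of 6483 genes of similar mean count.

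The other 44 genes summed to 3770, 4072 and 4114 CPM in sEH-/- libraries against 4067, 3822 and 3976 CPM in wild-type ones. Removing duplicate reads sets a ceiling on the counts of short, abundant transcripts. Counts were also corrected as if the exonic length capped the number of retained reads, which was not checked for these libraries. For the inducible genes the ratio of the highest to the lowest summed level was 1.29 as deposited and 1.33 after this correction. For all 49 it was 1.10 in both cases. With the library total as a covariate the median of the inducible genes was 0.067 and that of the other 44 genes 0.0045. The summed level of the macrophage markers was also lowest in these same libraries, at 2276 and 2022 CPM. The part of duplicate removal, of library total or of the marker level in the differences above was not tested further.

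**Figure D4:**
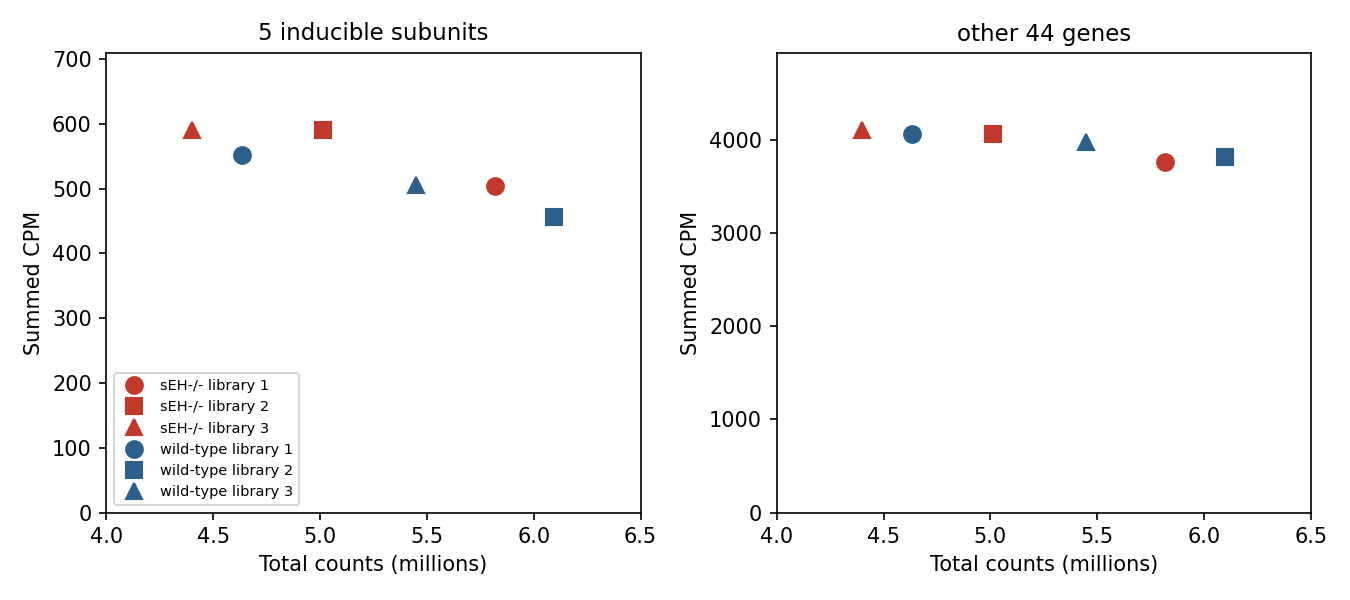
Summed CPM (y axes, from 0) of the 5 inducible subunits (left) and of the other 44 genes (right) against the total count of the library (x axes); blue symbols are wild-type, red symbols sEH-/- and the shape gives the library number. The library with the lowest sum of each genotype, sEH-/- library 1 and wild-type library 2, is the one with the highest total.

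Values within the alpha ring were close to each other. Psma1 to Psma7 all had log2 fold changes between 0.032 (Psma1) and 0.12 (Psma3), and the genotypes overlapped for each. Psma3 was at 55.6, 58.9 and 52.2 CPM in sEH-/- libraries against 51.7, 48.7 and 53.1 CPM in wild-type ones (adjusted p = 0.435, edgeR). Psma8, the alpha subunit of the testis, was at 4.87 to 14.2 CPM in sEH-/- libraries against 9.14 to 14.1 CPM in wild-type ones. This is the widest relative spread in the core, with a log2 fold change of -0.15 and an SE of 0.33. Psma6 had the highest level per kilobase of exon of all 49 genes, at 71.9 CPM per kb.

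The beta ring outside the 5 inducible genes was as even. Over its 7 genes the log2 fold change ran from -0.034 for Psmb1, a structural subunit, to 0.057 for Psmb4, another one. The lowest adjusted p among the 7 was 0.728, and no gene separated the genotypes. The median over the ring was 0.05.

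In the base of the 19S cap, the 6 ATPases that unfold substrates had log2 fold changes between -0.031 for Psmc6 and 0.12 for Psmc3. Psmc3 was at 110.9, 131.0 and 119.6 CPM in sEH-/- libraries against 117.0, 106.1 and 109.5 CPM in wild-type ones (95% interval -0.057 to 0.30, adjusted p = 0.405, edgeR). Psmc5 was second in level per kilobase of exon among the 49 genes, at 65.4 CPM per kb, with a log2 fold change of 0.084.

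The 11 non-ATPase subunits of the cap were divided in direction, 6 above and 5 below 0. Psmd6, a lid subunit, was higher in all sEH-/- libraries, at 75.6, 82.5 and 77.7 CPM against 73.0, 63.6 and 71.7 CPM. The log2 fold change was 0.18 (95% interval -0.0014 to 0.36, adjusted p = 0.217, edgeR). Psmd11, another lid subunit, was lower in all of them, at 109.1, 106.5 and 116.9 CPM against 118.3, 119.7 and 117.4 CPM. It had a log2 fold change of -0.097 (95% interval -0.25 to 0.051, adjusted p = 0.421), and the nearest libraries of the genotypes were only 116.9 and 117.4 CPM. Psmd2, the scaffold that holds ubiquitin receptors and the third in level per kilobase of exon at 63.7 CPM per kb, had a log2 fold change of -0.03 (95% interval -0.20 to 0.14).

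Among the assembly chaperones, Psmg2 had the lowest log2 fold change of the 49 genes. Psmg2, which with Psmg1 starts the assembly of the alpha ring, was at 27.9, 25.0 and 22.5 CPM in sEH-/- libraries against 31.2, 30.7 and 33.3 CPM in wild-type ones. Every sEH-/- library lay below every wild-type one, with a log2 fold change of -0.33 (95% interval -0.60 to -0.061, adjusted p = 0.135, edgeR). Its partner Psmg1 overlapped, with a log2 fold change of -0.025. Psmd5, a chaperone of the 19S base, was at 80.9, 74.3 and 85.8 CPM against 86.6, 89.2 and 93.0 CPM, again without overlap, with a log2 fold change of -0.16 (adjusted p = 0.25). Psmg4 had the highest value of the chaperones, 0.11, at 9.97 to 14.1 CPM in sEH-/- libraries against 11.1 ± 1.26 CPM (mean ± SD, n = 3) in wild-type ones, and Psmg3 was among the 3 lowest genes in level per kilobase of exon, at 6.27 CPM per kb.

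Of the activators outside the interferon-γ-induced pair, Psme4 (PA200), a nuclear activator of the core, was at 218.1, 204.4 and 230.0 CPM in sEH-/- libraries against 252.2, 250.0 and 236.4 CPM in wild-type ones. The genotypes did not overlap, and the log2 fold change was -0.18 (95% interval -0.34 to -0.016, adjusted p = 0.175, edgeR). Psmf1 (PI31), an inhibitor of the core in vitro, was at 90.7 to 109.0 CPM and 92.7 to 102.5 CPM, a log2 fold change of 0.046.

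The remaining rows belong to no role. Psme2b, the copy of Psme2, was at 18.1, 20.2 and 18.6 CPM in sEH-/- libraries against 14.5, 14.6 and 15.8 CPM in wild-type ones, with a log2 fold change of 0.34 (95% interval 0.019 to 0.66, adjusted p = 0.19, edgeR). It shares 69.3% of its 50-base windows with other transcripts, and reads mapping to several places had been removed, so its counts rest on part of the transcript. Whether any remaining reads stem from Psme2 was not tested. Psmc3ip had the lowest level of all 49 genes, at 2.32 to 4.84 CPM in sEH-/- libraries against 1.97 to 3.08 CPM in wild-type ones, with an SE of 0.37.

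Counted together, the genotypes did not overlap in 7 of the 49 genes, against 26.3% of all genes tested. Psmb10, Psmd6 and Psme2b were higher in sEH-/- libraries, against 11.8% of all genes tested, and Psmd11, Psmd5, Psmg2 and Psme4 were lower, against 14.5%. The coefficient of variation between mice had a median over the 49 genes of 7.20% in sEH-/- libraries against 4.98% in wild-type ones, where counting alone gives 4.55%.

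Transcripts of genes whose proteins work with the proteasome were mostly lower in the mean. Of 10 such genes tested, 8 had a log2 fold change below 0, with a median of -0.11. None was called or passed the adjusted p, against 2.61% and 4.01% of all genes tested. In 4 of the 10, all sEH-/- libraries lay below all wild-type libraries, against 14.5% of all genes tested. They were named after their values were seen and are Usp14 (log2 fold change -0.20, adjusted p = 0.127, edgeR) and Uchl5 (-0.23, adjusted p = 0.13), both deubiquitinases of the cap, the ubiquitin ligase Ube3c (-0.17, adjusted p = 0.176) and Zfand5 (-0.19, adjusted p = 0.154), an activator of the particle. Pomp, the maturation factor of the core, had a log2 fold change of 0.054. Of 13 genes for ubiquitin, its activation and the delivery of substrates, 7 were above 0 and none was called, against 2.61% of all genes.

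Regulators upstream of the genes were mixed. Of 4 genes tested that control proteasome gene expression, none was called or passed the adjusted p, against 2.61% and 4.01% of all genes. Nfe2l1, which raises subunit synthesis when the proteasome is inhibited, had a log2 fold change of 0.0091. Nfe2l2 (NRF2), the regulator of the antioxidant response, was at 186.1, 224.8 and 222.4 CPM in sEH-/- libraries against 178.7, 169.9 and 172.4 CPM in wild-type ones, without overlap, with a log2 fold change of 0.28 (adjusted p = 0.0802, edgeR). Of 11 genes of interferon-γ signalling 8 were above 0. None was called, against 2.61% of all genes, and 1 passed the adjusted p alone, against 4.01%. In 3 of the 11 all sEH-/- libraries lay above all wild-type libraries, against 11.8% of all genes. These were Jak2, a kinase of the interferon-γ receptor (log2 fold change 0.24, adjusted p = 0.0812, edgeR), Stat2, a transcription factor of the interferon response (0.41, adjusted p = 0.0508), and Nlrc5. The gene that passed was Nlrc5, the transactivator of MHC class I genes, at 327 ± 22.0 CPM in sEH-/- libraries against 230 ± 38.1 CPM in wild-type ones (SD, n = 3), a log2 fold change of 0.51 (adjusted p = 0.0378, edgeR). Its adjusted p was 0.000245 in DESeq2 and 0.0413 in limma-voom. In edgeR it was 0.0604 with replicate numbers as a block and 0.0501 with the library total as a covariate. It was 0.124, 0.195 and 0.172 without the second sEH-/-, the second wild-type or the third wild-type library. For Stat2 the adjusted p lay between 0.00149 and 0.245 over the alternatives. Irf1, which acts on the promoters of the inducible subunits, had a log2 fold change of 0.09.

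Genes that handle the peptides differed little in the mean. Of 12 class I peptide supply genes, 10 were above 0 with a median of 0.065. None was called or passed the adjusted p, against 2.61% and 4.01% of all genes tested. Tap1, the neighbour of Psmb9, had a log2 fold change of 0.034 and Tap2 one of 0.092. For the turnover of the TGF-β type I receptor, which is tagged by Smurf ubiquitin ligases, all 5 genes tested had values above 0. None was called, against 2.61% of all genes. Tgfbr1 (Alk5) had a log2 fold change of 0.21 (adjusted p = 0.197, edgeR) and Smurf2 one of 0.051.

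These are transcript levels. Protein amounts, assembled particles and peptidase activities were not measured in these libraries.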

How the data were processed

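Stranded RNA-seq libraries of 3 sEH-/- and 3 wild-type mice were analysed from 1 count table. Per the methods and the submitters' processing notes, the authors trimmed reads with Trimmomatic 0.39, aligned them to mm10 with STAR, removed duplicates (Picard) and reads that mapped to several places, to ribosomal or to mitochondrial sequence, and summed exonic reads per gene with featureCounts. The deposited counts are not normalized. Removing duplicates lowers the counts of short abundant genes and removing multi-mapping reads those of genes with copies. The sources differ on the library kit, RNA input and STAR version.

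Genes with a mean above 5 counts were tested with edgeR 4.0.16 in R 4.3.3 (TMM, factors 0.982 to 1.03, quasi-likelihood test, no covariates), and p-values were adjusted over all 13785 genes. CPM used TMM library sizes. DESeq2 1.42.0, limma 3.58.1 and 13 further settings were alternatives, and scripts were tested on simulated data. The ratio of counts used a pseudocount of 0.5. With 3 libraries a group, p-values rest on few replicates. Named genes were the inducible subunits and their counterparts, the extremes of each role by log2 fold change, the highest and lowest 3 by level per exonic kilobase (GENCODE M21), members in no role, and a fixed set of pathway genes and markers; others were chosen after their values were seen. Members and lists were chosen with earlier results of these data known. The principal-transcript and unique-sequence lengths, the promoter motifs and the counts per exonic base were added after seeing the data. Psmb11, and AI314180, Paaf1 and Nfe2l3 of the other lists, were not analysed here. Some pathway genes and a promoter motif are not reported here.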

Additional observations from a re-analysis of the deposited data

How the results depend on the processing

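Of the 15 alternatives, none called any of the 49 proteasome genes or brought one below an adjusted p of 0.05, and the lowest adjusted p was 0.0683. The median log2 fold change ran from 0.067 to 0.22 for the inducible genes and from 0.0045 to 0.088 for the other 44. The number of genes called over the whole table was less stable: it was 360, and became 171 with the library total as a covariate and 6 to 625 when 1 library was left out (95 without the second sEH-/- library, 25 without the second and 6 without the third wild-type library). The background shares therefore rest on single libraries. The count of 0 proteasome genes was the same in every setting. Where so few genes were called over the whole table, a count of 0 among 49 could hardly have come out otherwise. The cause of the shifts in the whole table was not tested. With the replicate block 234 genes were called over the whole table. The deviations of libraries with the same replicate number had correlations of -0.22, -0.46 and -0.065 over genes. For libraries with different numbers they ran from -0.092 to 0.33. Positive correlations were thus not seen between libraries of the same number. With so few libraries per genotype such deviations tend to cancel, so these values cannot decide whether the numbers mark pairs.

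Leaving out 1 library moved the Psmb10 to Psmb7 difference between 0.19 and 0.27, the Psmb8 to Psmb5 difference between -0.00064 and 0.16 and the Psmb9 to Psmb6 difference between -0.015 and 0.029. Genes close to 0 changed sign. With the library total as a covariate the log2 fold change became -0.0054 for Psma6, -0.021 for Psmb7, -0.0012 for Tap1 and -0.012 for Nfe2l1, and Nfe2l1 was also at -0.012 without TMM factors and at -0.0046 after the ceiling correction. With 1 library left out the log2 fold change ranged from -0.019 to 0.041 for Nfe2l1, -0.010 to 0.13 for Pomp, -0.00017 to 0.16 for Psma6, -0.52 to 0.16 for Psma8, -0.085 to 0.058 for Psmb1, -0.0086 to 0.13 for Psmb5, -0.018 to 0.11 for Psmb7, -0.037 to 0.51 for Psmc3ip, -0.090 to 0.051 for Psmc6, -0.059 to 0.015 for Psmd2, -0.021 to 0.12 for Psmf1, -0.00010 to 0.23 for Psmg4, -0.029 to 0.13 for Smurf2 and -0.013 to 0.087 for Tap1.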
